A study of Mus musculus with 7 samples.

Results

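Macrophages and their monocyte precursors carry a common set of transcripts for growth factor receptors, Fc receptors, pattern recognition receptors and lysosomal proteins, and 38 such genes were followed here in dystrophic mouse muscle. They are a list of symbols, with no threshold on measured values. The deposited table holds 37 of the 38 among its 29869 gene symbols, and all 37 passed the filter on low counts. Spi1, which encodes the myeloid transcription factor PU.1, does not stand in it under that symbol. Its older symbol Sfpi1 does, and is given apart.

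Transcripts were counted in whole soleus, a slow-twitch hindlimb muscle, of 7 mice aged 60 days. Every group shares mdx, a dystrophin mutation used as a model of Duchenne muscular dystrophy. The titles label 4 libraries mdx and 3 mdx/Runx1f/f, the latter with a floxed allele of the transcription factor gene Runx1. The labels name no Cre driver, so the cells in which Runx1 might be lost are not known from them. The titles give the animals as 358, 361, 373 and 375 for mdx and 359, 363 and 374 for mdx/Runx1f/f, and the replicates were read as separate mice. Not all labels go with this reading. In the description field most animal numbers stand at another sample, and the design text counts 3 mdx and 4 mdx/Runx1f/f muscles. Runx1 itself stood at 15.5, 15.4, 13.3 and 11.5 CPM, read counts scaled to 1 common library total, in the libraries labelled mdx and at 52.8, 52.1 and 33.9 in those labelled mdx/Runx1f/f. It was higher in the group where the label would lead to less of it (log2 fold change 1.74, SE 0.18, edgeR adjusted p = 0.00795; two-sided exact permutation p = 0.0286, the smallest that 35 splits allow). Counts over a whole gene include exons outside a deleted part, and are no check of a deletion. Groups are therefore called by their labels, and every direction rests on the titles.

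In dystrophic muscle, fibres that lack dystrophin break down and are repaired in repeated rounds, and monocytes enter from blood to clear debris. They become macrophages under the growth factor Csf1 and its receptor Csf1r. Macrophages sense antibody-coated and microbial material through Fc receptors, C-type lectins and Toll-like receptors. In whole muscle, a larger number of such cells and more RNA per cell cannot be told apart.

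Total counts were between 16218306 and 20847902 per library. The soleus label was checked on 6 slow-fibre genes, whose summed level was 22900 to 39800 CPM in the libraries labelled mdx and 6060 to 21200 in the others. The lowest of these, mdx/Runx1f/f replicate 1, was also the highest in the fast myosin gene Myh4, at 14100 CPM against 41.9 to 506 in the libraries labelled mdx. Results below are given with and without single libraries where that matters.

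The 37 genes together took 0.136%, 0.0747%, 0.0291% and 0.0365% of all counts in mdx replicates 1 to 4. They took 0.177%, 0.393% and 0.121% in mdx/Runx1f/f replicates 1 to 3. The groups overlapped, since mdx replicate 1 stood above mdx/Runx1f/f replicate 3. Lyz2 alone made up 24.1% to 28.2% of these counts in every library. The lowest pair, mdx replicates 3 and 4, came from animals 373 and 375. The animal numbers 358 to 363 and 373 to 375 are here called the lower and the higher number series. The description field makes the same split, with the lower series under mdx and the higher under mdx/Runx1f/f. The other labels say nothing of what separates the series.

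**Figure D1:**
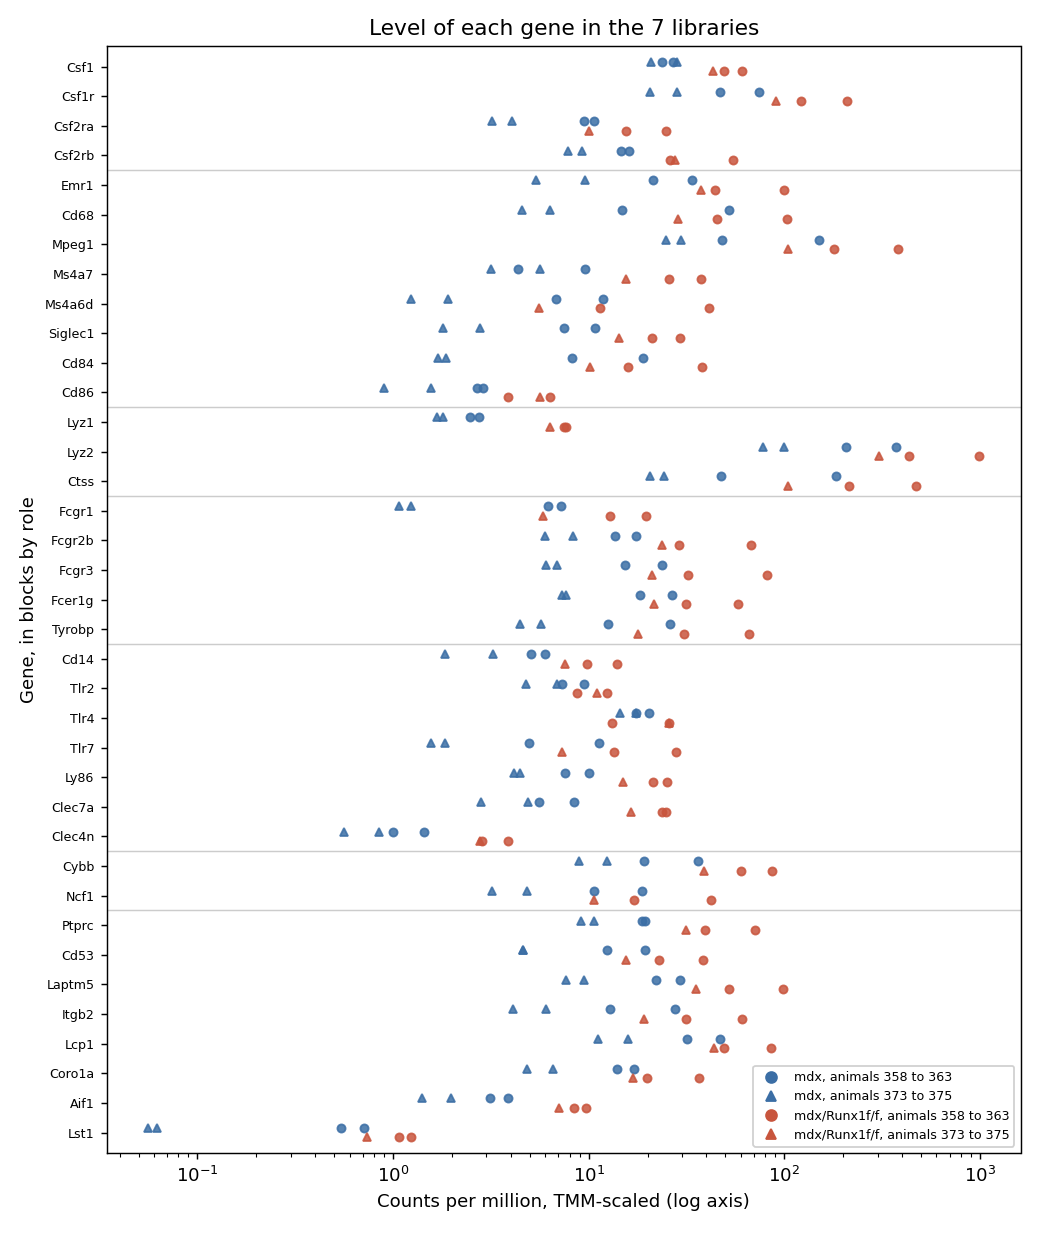
Level of each of the 37 genes in each library, as TMM-scaled CPM on a log axis, in blocks by role. Blue marks libraries labelled mdx and red those labelled mdx/Runx1f/f, circles animals 358 to 363 and triangles animals 373 to 375. The blue triangles are the lowest points of nearly every row, and in 18 rows all red points lie to the right of all blue ones.

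All 37 genes had a positive log2 fold change in the libraries labelled mdx/Runx1f/f, with a median of 1.65 and a range of 0.31 to 2.21. Of all 14033 tested genes 49.8% were positive, with a median of -0.0016, and 35 of the 37 against 8.56% of all genes were above 1. At an edgeR adjusted p below 0.05, with Benjamini-Hochberg adjustment across all tested genes, 9 rose and 0 fell, beside 5.10% of all genes that rose and 1.85% that fell. At an unadjusted p below 0.05 there were 32 higher and 0 lower genes, beside 29.5% of all genes in either direction. The 9 were Csf1, Csf2rb, Ms4a7, Lyz1, Ly86, Clec7a, Clec4n, Ptprc and Aif1. In 18 of the 37 genes no library labelled mdx reached the lowest of the others, beside 14.4% of all genes in which the mdx/Runx1f/f libraries were all higher. DESeq2 called 18 of the 37 higher (9.67% of all genes higher, 5.71% lower) and limma-voom 10 (5.24% and 2.05%), and neither called one lower. At the same threshold 20 of the 37 were higher and 0 lower in the authors' deposited table (11.2% and 7.85% of all genes), with a median log2 fold change there of 0.995.

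The called genes were set apart by their spread more than by their size. Their median log2 fold change was 1.70 and that of the 28 others 1.61. Their standard errors were 0.15 to 0.40, while 24 of the 28 others had one above 0.40, up to 0.86. The count also depended on single libraries. Without mdx replicate 1 the number of risen genes was 17 and the median 2.10. Without mdx/Runx1f/f replicate 2 it was 2 and the median 1.16. Without mdx replicates 2, 3 or 4 it was 4, 2 and 4, and without mdx/Runx1f/f replicate 1 or 3 it was 5 and 9. Among all genes, 4.60%, 2.36%, 1.57% and 2.08% rose without mdx replicates 1 to 4, and 3.52%, 1.22% and 3.20% without mdx/Runx1f/f replicates 1 to 3. In the same order 1.16%, 0.558%, 0.316%, 0.675%, 1.22%, 0.120% and 1.47% of all genes fell, and 0 of the 37 did. Of the 9 genes, Csf1 and Lyz1 stayed called in each of the 7 fits that left out 1 library, as did 0.891% of all tested genes. The count moved by 1 at most under 4 other settings. It was 9 with scaling of the DESeq2 type (5.04% of all genes rose, 1.88% fell) and with upper-quartile scaling (5.09% and 1.95%). It was 10 without a filter on low counts (3.43% and 1.22%) and 8 of 34 tested with a filter of 5 CPM (6.28% and 2.32%). The groups of the description field are the lower and the higher number series. With them in place of those of the titles, edgeR called 0 of the 37 (0.0356% of all genes higher and 0.0214% lower). By the same edgeR fit 16 were at an unadjusted p below 0.05 (11.9% of all genes), and 1 of the 37 was positive.

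**Figure D2:**
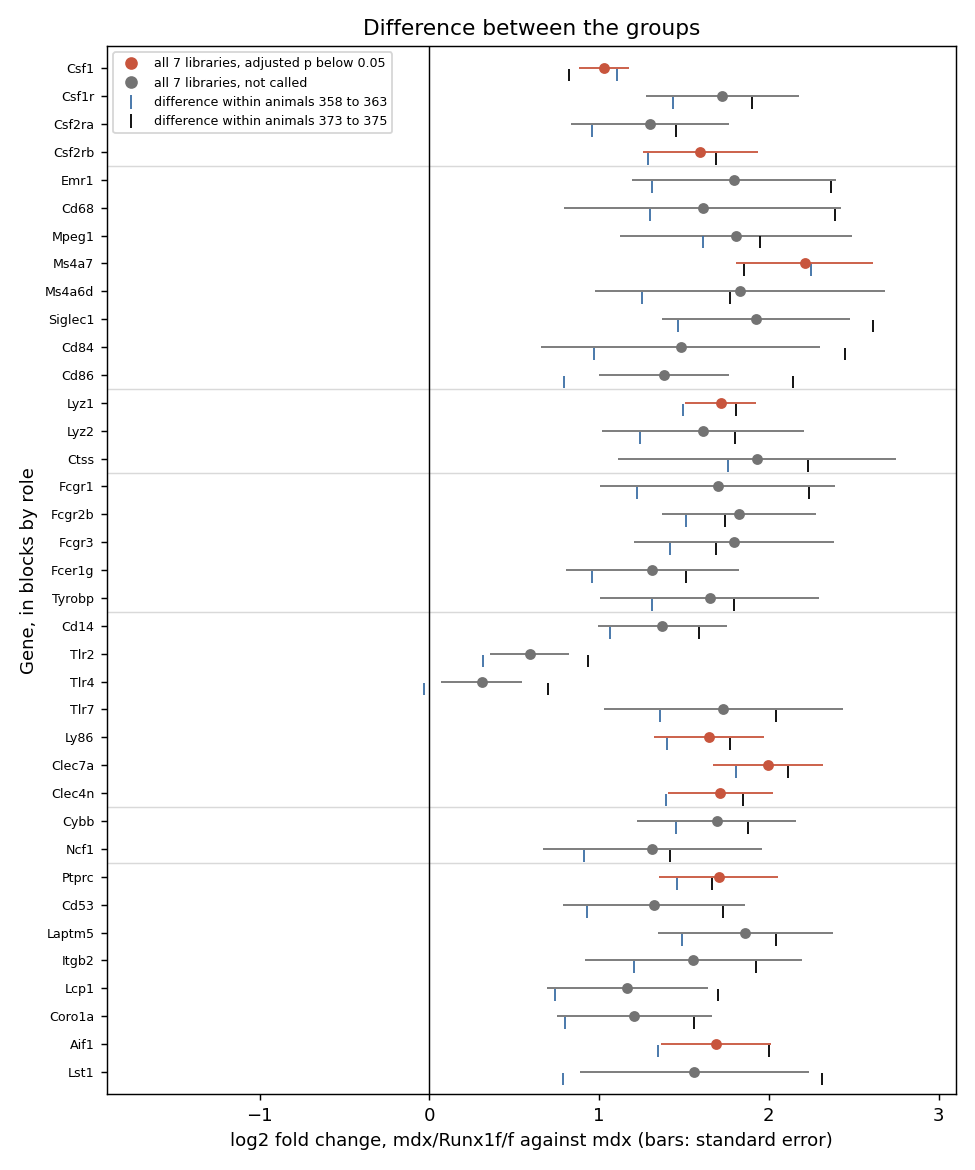
Log2 fold change of each gene between the groups with its standard error, in red where edgeR's adjusted p was below 0.05 and in grey elsewhere. Ticks under each point give the difference of mean log2 CPM within animals 358 to 363 (blue) and within animals 373 to 375 (black). All points lie to the right of 0, and the black tick lies to the right of the blue one in 35 of 37 rows.

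The pattern over libraries was shared by most of the genes. In 34 of the 37 both mdx animals of the lower number series stood above both of the higher one, beside 25.6% of all tested genes. That difference among muscles titled mdx had a median of 1.53 log2 units, close in size to the difference between the titles' groups. By the description field these pairs would belong to different groups. In 36 of the 37 the lowest library was mdx replicate 3 or 4 (32.2% of all genes), and in 31 the highest was mdx/Runx1f/f replicate 2 (21.0%). Mdx replicate 1 stood above mdx/Runx1f/f replicate 3 in 16 genes and above mdx/Runx1f/f replicate 1 in 5. In 18 of the 19 genes whose groups overlapped, both mdx replicates 3 and 4 lay below all libraries labelled mdx/Runx1f/f.

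Comparing muscles within a number series gave differences in the same direction. By the description field each series holds a single group, so these comparisons rest on the titles. Within animals 358 to 363 the median log2 difference was 1.30, and both mdx/Runx1f/f libraries stood above both mdx libraries in 31 of the 37 genes (27.5% of all genes). Within animals 373 to 375 it was 1.80, and the single mdx/Runx1f/f library stood above both mdx libraries in all 37 (40.9%). Both differences of mean log2 CPM were positive in 36 genes, the exception being Tlr4 at -0.03 in the lower series. With the number series as a covariate, 30 of the 37 rose and 0 fell (8.88% and 4.15% of all genes), the 9 above among them. Fitted alone, the lower series, 2 against 2, gave 0 calls over all genes by edgeR (0%), with 26 of the 37 and 19% of all genes at an unadjusted p below 0.05. The higher series, 2 against 1, called 36 of 36 tested higher (9.53% of all genes higher, 3.08% lower), with the lone library taken to vary like the pair labelled mdx, so these calls carry no measure of spread among mdx/Runx1f/f muscles. The difference between the series was tested as an interaction. By edgeR it was called for 0 of the 37 genes, with 3 of the 37 and 5.89% of all genes at an unadjusted p below 0.05, a lowest adjusted p of 0.823, and 0 calls over all genes.

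**Figure D3:**
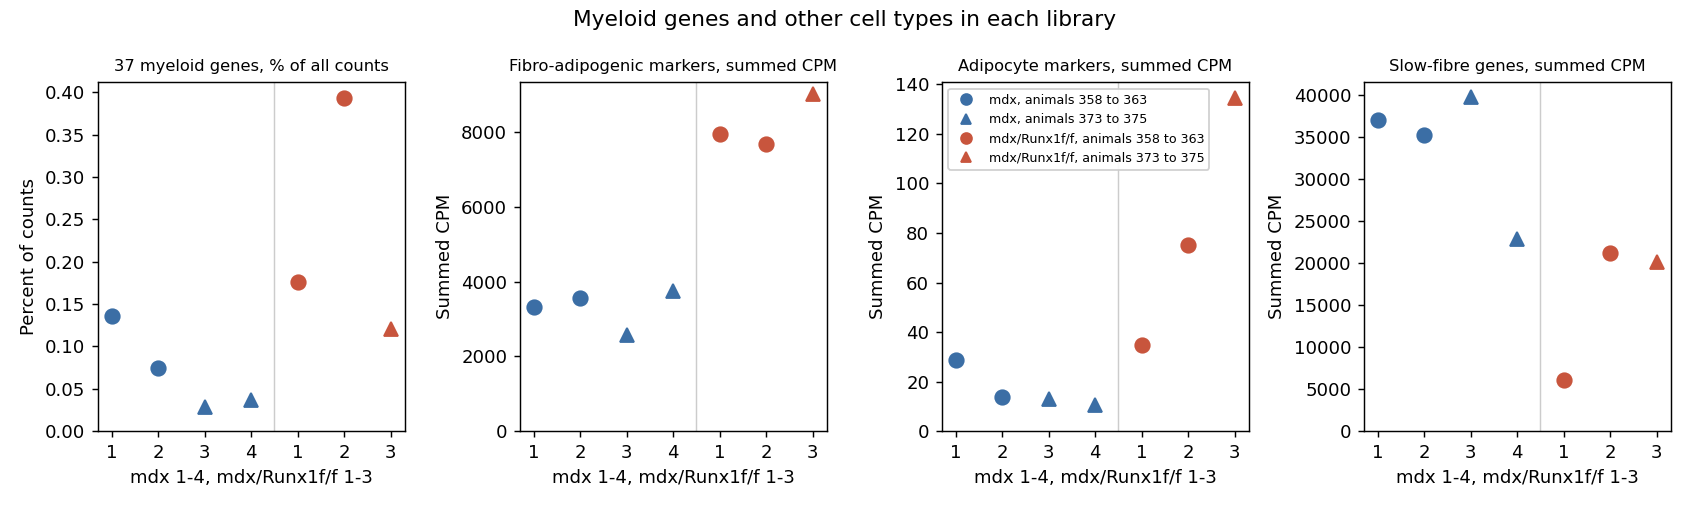
Share of all counts taken by the 37 myeloid genes, and summed CPM of marker genes of fibro-adipogenic progenitors, adipocytes and slow fibres, in each library. Blue marks mdx and red mdx/Runx1f/f, circles animals 358 to 363 and triangles animals 373 to 375. The myeloid share of mdx replicate 1 (0.136%) lies above that of mdx/Runx1f/f replicate 3 (0.121%), while the fibro-adipogenic sums of the groups do not overlap.

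Among growth factors and receptors, 2 of 4 rose. Csf1, the growth factor that macrophages need to survive and that many stromal cells secrete, stood at 23.8, 27.0, 20.9 and 28.4 CPM in mdx replicates 1 to 4 and at 49.2, 60.8 and 43.1 in mdx/Runx1f/f replicates 1 to 3. It was 2.04-fold higher (log2 fold change 1.03, SE 0.15, edgeR adjusted p = 0.0149). Unlike most of the list, Csf1 showed nearly the same level in both mdx pairs, which differed by 0.06 log2 units. Csf1r, its receptor on macrophages, stood at 74.0, 47.1, 20.7 and 28.3 CPM against 122, 209 and 90.7. Its groups did not overlap, and it was not called at 3.31-fold (log2 1.73, SE 0.45, edgeR adjusted p = 0.0573), while with the series as a covariate it was (edgeR adjusted p = 0.0122). Of the 50-base words of Csf1r, 14.3% also occur in Hmgxb3. Csf2rb, the shared beta chain of the receptors for Csf2, interleukin 3 and interleukin 5, stood at 14.6, 16.1, 7.84 and 9.27 CPM against 26.0, 54.7 and 27.7. It rose 3.03-fold (SE 0.34 in log2 units, edgeR adjusted p = 0.0342). Reads of Csf2rb are shared in part with its copy Csf2rb2, in which 12.3% of its 50-base words also occur. Csf2ra, the alpha chain for Csf2, stood at 2.46-fold with overlapping groups (edgeR adjusted p = 0.114).

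Of 8 macrophage surface and granule proteins 1 rose. This was Ms4a7, a tetraspan membrane protein of macrophages, at 9.60, 4.36, 3.17 and 5.62 CPM against 25.9, 37.6 and 15.5. Its fold was 4.63, the largest of the 37 (log2 fold change 2.21, SE 0.40, edgeR adjusted p = 0.0246). Emr1, which encodes the F4/80 antigen used to define mouse macrophages, stood at 33.9, 21.3, 5.41 and 9.55 CPM against 44.5, 99.8 and 37.5, without overlap but not called (1.79, edgeR adjusted p = 0.0986). Cd68, a lysosomal glycoprotein of phagocytes, stood at 51.9, 14.8, 4.54 and 6.35 CPM against 45.3, 103 and 28.6. Its mdx replicate 1 lay above both the first and the third mdx/Runx1f/f library, and its SD among libraries labelled mdx, 22.1 CPM, exceeded their mean of 19.4 (n = 4). The pore-forming protein gene Mpeg1, the sialic acid receptor gene Siglec1 and the costimulatory ligand gene Cd86 had log2 fold changes of 1.80, 1.92 and 1.38 (edgeR adjusted p = 0.128, 0.0714 and 0.0664). Ms4a6d and the adhesion receptor gene Cd84 had 1.83 and 1.48 (edgeR adjusted p = 0.194 and 0.266).

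Lysozymes break bacterial cell walls. Mice have a pair of neighbouring lysozyme genes on chromosome 10, Lyz1, known from Paneth cells of the gut, and Lyz2, the lysozyme of macrophages. Their coding sequences are 444 bases long without the stop codon and differ at 22 bases, an identity of 95.0%. The 120 coding bases that hold most of these differences, 14 of the 22, are shown to make clear how far reads of the genes can be told apart. They run from base 37 to base 156, counted from 1 at the start codon, from GENCODE M21 transcripts, with differing bases in capitals.
Lyz1: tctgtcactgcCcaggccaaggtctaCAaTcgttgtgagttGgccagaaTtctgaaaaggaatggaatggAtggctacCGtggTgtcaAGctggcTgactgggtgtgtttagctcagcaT
Lyz2: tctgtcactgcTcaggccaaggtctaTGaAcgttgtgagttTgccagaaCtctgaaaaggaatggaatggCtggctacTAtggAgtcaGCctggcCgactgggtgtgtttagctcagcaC
The longest stretch without a difference was 118 bases, and 16.1% of the 50-base words of Lyz1 transcripts also occur in Lyz2. How reads that match both genes were counted is not known. Lyz2 had many times the counts of Lyz1, so the level of Lyz1 is uncertain to a degree that was not measured. Lyz1 stood at 46, 42, 27 and 32 raw counts in mdx replicates 1 to 4 and at 133, 179 and 103 in mdx/Runx1f/f replicates 1 to 3. That is 2.18 ± 0.522 CPM (SD, n = 4) against 7.17 ± 0.705 (SD, n = 3). It rose 3.28-fold (log2 1.72, SE 0.21, edgeR adjusted p = 0.0105). Lyz2 stood at 372, 206, 77.7 and 99.3 CPM against 433, 990 and 306, with overlapping groups, and was not called (log2 1.61, SE 0.59, edgeR adjusted p = 0.122). Counts of Lyz1 were 0.742% of those of Lyz2 in mdx replicate 1 and 0.773% in mdx/Runx1f/f replicate 2, 1.2% in mdx replicate 2, and 1.73% to 2.16% in mdx replicates 3 and 4 and mdx/Runx1f/f replicates 1 and 3. Lyz1 was thus no fixed share of Lyz2, and its levels within a group lay closer together. Ctss, the lysosomal protease cathepsin S, stood at 184, 47.5, 24.3 and 20.5 CPM against 214, 470 and 105 and was not called (1.93, SE 0.82, edgeR adjusted p = 0.163).

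Fc receptors bind antibodies, and Fcer1g is a small adaptor that carries the activating motif for many of them. Tyrobp is a small adaptor with a motif of the same kind. None of these 5 passed in edgeR or limma-voom (0 each), 2 did in DESeq2, with 5 at an unadjusted p below 0.05. With the series as a covariate all 5 rose. Fcer1g stood at 26.7, 18.2, 7.34 and 7.64 CPM against 31.5, 58.2 and 21.6 (log2 fold change 1.31, edgeR adjusted p = 0.135). Tyrobp stood at 26.1, 12.5, 4.48 and 5.73 CPM against 30.8, 66.2 and 17.9 (1.65, edgeR adjusted p = 0.138). Both adaptors showed the same order of libraries, with mdx replicate 1 above mdx/Runx1f/f replicate 3. The inhibitory receptor gene Fcgr2b had 1.83 (edgeR adjusted p = 0.0518), the nearest of the 5 to the threshold, and its groups did not overlap. The activating receptor genes Fcgr1 and Fcgr3 had 1.70 and 1.80 (edgeR adjusted p = 0.149 and 0.0937). Fcgr2b and Fcgr3 are close paralogs, and 9.58% of the 50-base words of Fcgr3 also occur in Fcgr2b.

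Among 7 pattern recognition receptors and their partners 3 rose. Clec7a, which encodes the receptor Dectin-1 for fungal glucans, stood at 8.40, 5.6, 4.92 and 2.81 CPM against 24.8, 23.7 and 16.5, a 3.99-fold rise (log2 fold change 2.00, SE 0.32, edgeR adjusted p = 0.0183). Clec4n, which encodes the related receptor Dectin-2, was low at 9 to 24 raw counts in the libraries labelled mdx and 45 to 69 in the others (1.72, edgeR adjusted p = 0.0243). Ly86, which encodes the partner protein MD-1 of a Toll-like receptor homologue, stood at 10, 7.6, 4.48 and 4.16 CPM against 21.4, 25.3 and 15.0 (1.65, edgeR adjusted p = 0.0299). None of these 3 overlapped between the groups. Tlr4, the receptor for bacterial lipopolysaccharide, stood at 17.4, 20.4, 14.4 and 17.5 CPM against 13.2, 25.7 and 25.9. Its fold of 1.24 was the lowest of the 37 (log2 0.31, SE 0.24, edgeR adjusted p = 0.412). Tlr2, the receptor for bacterial lipopeptides, followed at 0.59 (edgeR adjusted p = 0.139). Cd14, the coreceptor of Tlr4, and Tlr7, an endosomal sensor of single-stranded RNA, had 1.37 and 1.73 (edgeR adjusted p = 0.0663 and 0.149).

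The NADPH oxidase makes the oxidative burst of phagocytes. Neither subunit gene was called by edgeR or limma-voom, while DESeq2 called 1 of 2 and 1 was at an unadjusted p below 0.05. Cybb, the membrane-bound catalytic subunit, stood at 36.4, 19.1, 8.96 and 12.4 CPM against 60.2, 87.1 and 39.1, without overlap (1.69, edgeR adjusted p = 0.0658). The cytosolic subunit gene Ncf1 had 1.31 (edgeR adjusted p = 0.215), and 7.45% of its 50-base words also occur in other genes.

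Of 8 genes listed for leukocyte and cytoskeletal proteins 2 rose. Ptprc, the phosphatase CD45 that marks all leukocytes, stood at 19.4, 18.8, 10.6 and 9.16 CPM against 39.4, 70.5 and 31.5, a 3.26-fold rise without overlap (log2 fold change 1.70, SE 0.35, edgeR adjusted p = 0.0331). Aif1, which encodes the calcium-binding protein Iba1, rose from 2.60 ± 1.11 CPM (SD, n = 4) to 8.39 ± 1.35 (SD, n = 3), or 3.23-fold (edgeR adjusted p = 0.0279). The actin-bundling protein gene Lcp1 and the coronin gene Coro1a had 1.17 and 1.21, the integrin beta 2 gene Itgb2 had 1.56, and the tetraspanin gene Cd53 had 1.32 (edgeR adjusted p = 0.150, 0.126, 0.153 and 0.149). Lcp1 shares 8.17% of its 50-base words with other genes. The lysosomal membrane protein gene Laptm5 had 1.86 (edgeR adjusted p = 0.0661). Lst1 was the gene with the fewest counts, 1 in each of mdx replicates 3 and 4 and 25 at most, and had 1.56 (edgeR adjusted p = 0.168). Sfpi1, the older symbol of Spi1, stood at 8.16, 4.65, 1.74 and 2.87 CPM against 10, 19.2 and 7.10. It was not called (log2 fold change 1.48, SE 0.52, edgeR adjusted p = 0.109) and had the same order of libraries as the adaptors.

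Levels of different genes were compared per kilobase of exon, on exon lengths of GENCODE M21, which need not be the annotation behind the counts. Lyz2 led in both groups, at 143 ± 102 CPM per kilobase (SD, n = 4) under the label mdx and 438 ± 276 (SD, n = 3) under the other. Ctss came next at 50.9 ± 57.1 and 194 ± 138, and Tyrobp was the third at 18.3 ± 14.9 and 57.4 ± 37.5. The ranges of Lyz2 and Ctss, and of Ctss and Tyrobp, overlapped within each group. Within each single library, Lyz2 stood above Ctss and Ctss above Tyrobp. Tlr4 stood at place 17 of that order under the label mdx and at place 30 under the other, and Ms4a7 at places 30 and 22, with no test made of places. Cd86 was the lowest of the 37 in both groups, at 0.55 ± 0.259 and 1.44 ± 0.347.

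To describe how the genes vary among themselves, each was set against Ptprc in the same library as a difference of log2 CPM. Group means mostly differed little, while single libraries differed more. For 31 of the other 36 genes the group means of this difference lay within 0.5 log2 units of each other, and for 34 the groups overlapped. The difference ranged over more than 1 log2 unit across the 7 libraries in 27 of the 36, most in Cd68. The 2 that did not overlap were Tlr4 and Tlr2, whose means relative to Ptprc were lower by 1.43 and 1.07 in the libraries labelled mdx/Runx1f/f. Csf1 was lower by 0.66 relative to Ptprc, with overlap. Ctss and Ms4a7 were higher by 0.58 and 0.53, with overlap. In 10 of the 36 genes the difference from Ptprc was higher in all 4 muscles of the lower series than in all 3 of the higher one. These were Ms4a6d, Cd84, Lyz2, Fcgr1, Fcgr3, Tyrobp, Tlr7, Cd53, Laptm5 and Itgb2. The opposite order was not counted. No test was made of these ratios, and none of these counts was made over all tested genes.

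**Figure D4:**
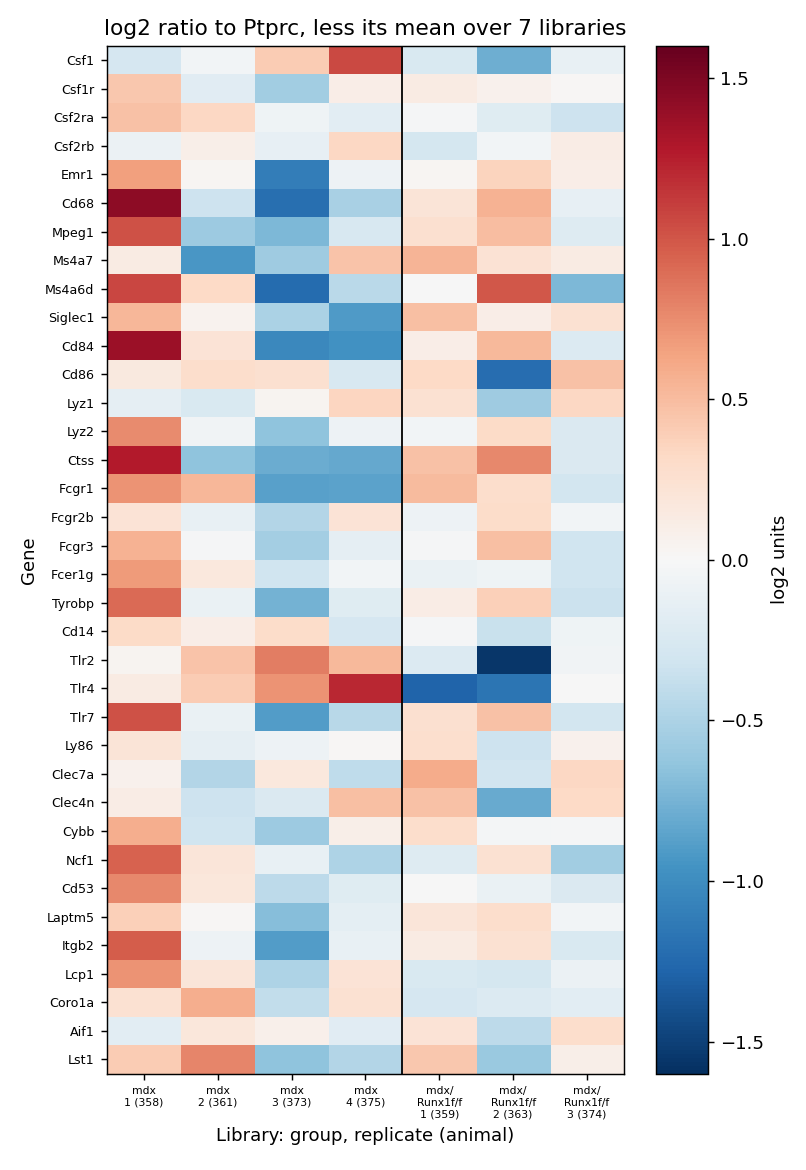
Log2 ratio of each gene to Ptprc in each library, less the mean of that ratio over the 7 libraries, from blue (lower) to red (higher). Columns are libraries with their animal number, and the black line parts mdx (left) from mdx/Runx1f/f (right). Rows of Tlr2 and Tlr4 are red or pale on the left and blue or pale on the right, and mdx replicate 1 is reddest for Cd68, Cd84 and Ctss.

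Further genes of the same pathways were read from lists that do not share a gene with the 37. Of 69 tested genes 17 rose and 0 fell, with a median log2 fold change of 1.29, and 67 were positive. Of all 14033 tested genes 5.10% rose, 1.85% fell and 49.8% were positive. These shares also stand beside the edgeR counts of single lists below. Runx1 is 1 of the 17. Among other colony-stimulating factors and receptors 1 of 4 rose, Csf2rb2 (1.74, edgeR adjusted p = 0.0168), a copy of Csf2rb that shares 18.4% of its 50-base words with it. Il34, the second ligand of Csf1r, had 0.57 (edgeR adjusted p = 0.219). Among 13 tested genes of Fc receptor signalling 3 rose, among them the activating receptor gene Fcgr4 (2.59) and the adaptor gene Lcp2 (1.82).

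Of 20 tested genes of the Toll-like receptor pathway 6 rose. Lbp, the lipopolysaccharide-binding protein gene, stood at 10.4 to 17.9 CPM in the libraries labelled mdx and at 45.1 to 49.3 in the others (1.80, edgeR adjusted p = 0.00795). Unc93b1, which carries endosomal Toll-like receptors to their compartment, had 1.42, Tlr5 1.94, Tlr9 2.09 and the lipopolysaccharide coreceptor gene Ly96 0.87. Tlr12 rose from 0 to 4 raw counts per library to 12 to 32. The signalling genes Irak1 and Traf6, made by most cells, had -0.04 and 0.03 and were not called. Among 6 other NADPH oxidase genes edgeR and limma-voom called 0 and DESeq2 5, with 5 at an unadjusted p below 0.05, such as Rac2 (1.48, edgeR adjusted p = 0.0716). Of 12 tested myeloid transcription factors 4 rose, Runx1, Irf8 (1.73), Irf5 (1.17) and Ikzf1 (1.66). Of 14 integrin and cytoskeletal genes 3 rose, the integrin genes Itgal (1.85), Itgax (2.41) and Itga4 (1.59), while Itgam, the alpha chain of the macrophage antigen Mac-1, had 1.35 (edgeR adjusted p = 0.297).

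Markers of other cells were read beside these results. Of 8 fibro-adipogenic progenitor markers 8 rose, from summed levels of 2580 to 3750 CPM to 7680 to 9010, with a median log2 fold change of 1.19. Pdgfra, which defines these cells, stood at 37.4 to 52.1 CPM against 90.3 to 95.8. Of 5 adipocyte markers 3 rose, from summed levels of 10.7 to 28.7 CPM to 34.6 to 135. DESeq2 called 4 of these 5 higher and limma-voom 1. Unlike the myeloid share, the fibro-adipogenic sum differed little between mdx pairs of the 2 number series, as the plot of sums by library shows. Of 7 monocyte markers 6 were tested and edgeR called 1 higher, Ace, which endothelial cells also make. DESeq2 and limma-voom each called 3 higher and 0 lower. Their summed levels were 73.8 to 160 against 212 to 278 CPM, of which Ace took 58.8 to 97.6 against 162 to 207. Summed levels were 1.29 to 5.48 against 3.6 to 6.28 CPM for 11 neutrophil markers and 5.40 to 7.44 against 7.73 to 8.73 for 9 T cell markers. They were 0.84 to 2.02 against 1.58 to 2.28 CPM for 7 B cell markers and 0.42 to 0.996 against 0.513 to 1.97 for 6 NK cell markers, of which Klra8 was at 0 in every library. Of the T cell sum Cd28 took 4.10 to 6.48 against 4.75 to 6.31 CPM, so that sum says little of the other T cell markers. Cd3e, a defining gene of T cells, had at most 7 raw counts in a library. Of 7 dendritic cell markers 2 rose, Ccr7 and Siglech, at summed levels of 6.22 to 11.4 against 12.7 to 15.1 CPM. Of 5 tested mast cell markers 0 were called, and of 6 endothelial markers 1 rose, Vwf, at summed levels of 480 to 897 against 567 to 807 CPM. Red cell markers summed to 7.92 to 10.9 against 9.14 to 20.2 CPM, with 0 of 2 tested called. Fibre genes gave 0 calls by edgeR, among 6 of slow fibres (3 lower at an unadjusted p below 0.05, 2 lower by DESeq2, 0 by limma-voom) and 7 of fast fibres (1 higher, 1 and 0). Mast cell markers gave 2 higher, 1 and 0 by the same counts. Neutrophil markers gave 1 higher, 2 and 0, with 3 of 11 tested by edgeR and 0 called. The part of stromal and fat cells, and of the animal number series, in the myeloid results was not tested.

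Upstream sequence was read from the RefSeq promoter table (GRCm38.p6) for 24 of the 37 genes, at 30 start sites. Any windows of the 37 genes on a single chromosome were left out, while the count over all windows had no such filter. In the 250 bases before the start, on either strand, the PU.1 core GAGGAA (or TTCCTC) stood in 12 of 30 windows, or 40%, and in 23.3% of all 32851 windows of the table. The Runx core TGTGGT (or ACCACA) stood in 4 of 30, or 13.3%, and in 14% of all windows. Some of the 30 windows overlap others of the same gene. By gene, the PU.1 core stood in 10 of 24 and the Runx core in 4 of 24, and no such count was made over all genes. Of the 7 risen genes with a window, 3 held the PU.1 core, Ptprc, Clec7a and Aif1, and 0 the Runx core. A window of each is shown, with Cd53 as a gene that held both cores. All 4 genes lie on the minus strand, and the windows are read 5′ to 3′ toward the start site with the cores in capitals. A match is a description of the letters and not a bound site.
Ptprc, chr1:138175306-138175555: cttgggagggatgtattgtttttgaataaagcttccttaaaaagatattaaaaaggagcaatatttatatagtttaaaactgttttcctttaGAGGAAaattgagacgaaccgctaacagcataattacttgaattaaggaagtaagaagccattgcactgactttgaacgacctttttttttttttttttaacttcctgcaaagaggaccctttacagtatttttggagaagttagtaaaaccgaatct
Clec7a, chr6:129472786-129473035: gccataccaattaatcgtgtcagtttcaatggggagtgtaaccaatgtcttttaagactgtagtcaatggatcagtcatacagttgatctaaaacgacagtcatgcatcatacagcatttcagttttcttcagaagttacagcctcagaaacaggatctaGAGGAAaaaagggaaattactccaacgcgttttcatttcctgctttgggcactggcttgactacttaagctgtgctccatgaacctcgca
Aif1, chr17:35176053-35176302: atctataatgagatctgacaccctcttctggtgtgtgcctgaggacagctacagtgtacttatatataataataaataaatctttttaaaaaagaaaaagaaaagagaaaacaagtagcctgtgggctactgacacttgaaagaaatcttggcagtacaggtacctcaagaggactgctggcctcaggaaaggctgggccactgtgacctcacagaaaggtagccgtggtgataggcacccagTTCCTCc
Cd53, chr3:106790150-106790399: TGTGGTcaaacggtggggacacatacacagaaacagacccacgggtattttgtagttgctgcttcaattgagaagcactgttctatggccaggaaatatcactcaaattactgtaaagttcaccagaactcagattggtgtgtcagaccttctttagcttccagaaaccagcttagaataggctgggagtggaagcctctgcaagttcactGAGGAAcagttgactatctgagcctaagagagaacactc
The first 3 genes rose, and Cd53 was not called. The counts themselves were made on mm9, so no coordinate of the count data is given.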

How the data were processed

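RNA-seq libraries of whole soleus from 7 mice were analysed. The authors deposited raw read counts per gene, made with TopHat2 2.0.10 and HTSeq on mm9, per the submitters' processing notes. The annotation, strand setting and treatment of multiply mapped reads are not stated in any label or header. The table's log2 fold changes and adjusted p-values are the authors', from DESeq2 1.6.3 per the submitters' processing notes. A further 7 deposited columns, 1 per sample and holding counts over a size factor (checked on the values), were not used. Columns were joined to samples by the animal number in the titles. Groups were compared with edgeR 4.0.16 in R 4.3.3 (TMM, filterByExpr, quasi-likelihood test, no covariate), adjusted by Benjamini-Hochberg over 14033 genes holding 99.9% of counts, with calls made at 0.05. The standard error was the log2 fold change over the root of F. CPM were scaled by TMM, and log2 CPM had a prior count of 2. DESeq2 1.42.0 and limma 3.58.1 (voom) were alternatives. All pairs of libraries differed beyond sampling noise (lowest chi-square per degree of freedom 15.8). The test was checked on simulated data. Named were all listed genes, Runx1, up to 6 tested genes of each pathway list by smallest p and up to 3 of each cell type list. Sfpi1, Irak1, Traf6, Itgam and Cd3e lie outside that rule and were chosen after their values were seen. Some genes of these lists are not reported here by name. The 38 genes and all lists were chosen with earlier results of these data known, so no test of a list was made.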

Additional observations from a re-analysis of the deposited data

Results flagged for a closer look

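Ctss stood at 184 CPM in mdx replicate 1, apart from the 47.5, 24.3 and 20.5 of the other libraries labelled mdx, a gap wide for 4 values against their whole range. Of the 37 genes 1 was flagged in this way, and chance flags about 1 in 20.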

How the results depend on the processing

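Every tested gene of the 37 kept a positive log2 fold change under each alternative that keeps the titles' groups. The number of risen genes, 9, was 9 with either other scaling, 10 without a filter on low counts, 8 of 34 tested with a filter of 5 CPM in 3 libraries and 10 by limma-voom. It was 18 by DESeq2, 30 with the number series as a covariate, 0 within animals 358 to 363 and 36 within animals 373 to 375, where 1 group is a single library. Leaving out 1 library gave 2 to 17. With groups from the description field, which are the lower and the higher number series, it was 0 and the median was -1.40. Over all genes 5 were then called higher and 3 lower. The cause of these shifts was not tested. Fallen genes numbered 0 throughout, and the median was 1.16 to 2.10 over the alternatives that keep the titles' groups. Runx1 had a log2 fold change of 1.77 within animals 358 to 363 (edgeR adjusted p = 0.131) and stayed called in each other alternative that keeps the titles' groups. With the title number as a replicate block 8 of the 37 and 240 of all genes rose (715 without it). Clec4n was the 1 call lost (edgeR adjusted p = 0.0546), and the median was 1.51. Same-numbered libraries did not deviate together in every pair (correlations of -0.01, 0.24 and 0.28), so the numbers were not taken to pair animals. With 4 and 3 muscles, log2 fold changes up to 1.93 (Ctss) went uncalled at standard errors up to 0.86 (Ms4a6d).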

Other observations

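Syk, the kinase that binds phosphorylated activating motifs of Fcer1g and Tyrobp, had 0 to 2 raw counts in every library, and Irak3, a regulator of Toll-like receptor signalling, 0 in 6 of 7 and 1 in the other. Both were picked with their values known, as were the genes named next. Whether the annotation used for counting covers their transcripts was not tested, so these values are no measure of absent expression. In the same libraries Tyrobp stood between 4.48 and 66.2 CPM. Other pathway genes at 10 counts or fewer in each library were Csf2, Csf3, Trem1, Clec5a, Sirpb1a, Gfi1 and Cebpe.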
